A study of Mus musculus with 10 samples.

Results

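The genes described here are 40 mouse genes that mark T cells and natural killer (NK) cells. They were chosen by name, with earlier results of these data known. All 40 were found among the 55421 genes of the count table. They passed the filter of 10 counts summed over the 10 libraries that left 22449 genes to test. The genes fall into T cell receptor chains, coreceptors, proximal signalling proteins, surface and costimulatory receptors, checkpoint receptors, cytotoxic effectors and interferon gamma, NK receptors, transcription factors and cytokine receptors.

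The study deleted the histone variant H3.3 in hepatocytes of adult male mice and sequenced poly(A) RNA of whole livers 3 weeks later. The H3.3 KO group (KO, n = 4) carried floxed alleles of both H3.3 genes, H3f3a fl/fl and H3f3b fl/fl, and received AAV8 Tbg-Cre, a viral vector that expresses Cre recombinase from the hepatocyte-restricted Tbg promoter, at 6 months of age. The WT Cre controls (n = 3) were wild-type livers given the same Cre virus. The MCS controls (n = 3) had the same floxed alleles and received AAV8 Tbg-MCS, the vector without Cre. All 10 livers thus had received AAV8, in each group at 6 months of age. The genotype field of the floxed livers names HIRA where their titles name H3f3a and H3f3b, and the titles were followed. Cre from the Tbg promoter is not aimed at lymphocytes, and RNA of a whole liver does not show from which cells a transcript came. Control columns were tied to WT Cre and MCS by number only, so values for 1 kind of control rest on that match.

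T cells recognise peptides on MHC molecules through a rearranged receptor, whose invariant CD3 and zeta chains pass the signal to the kinases Lck and Zap70, while CD4 or CD8 binds the MHC molecule. NK cells have no rearranged receptor and balance germline-encoded activating and inhibitory receptors. Both can kill through perforin and granzymes and release interferon gamma, and T cells that have been activated carry checkpoint receptors such as CTLA-4, PD-1, LAG-3 and TIGIT. The mouse liver is known for its resident NK and T cells, which are a small share of its cells beside the hepatocytes.

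Each library held 14998426 to 26096141 counts, and the lowest total was that of KO 1. H3f3a fell from 62.1 ± 1.59 CPM (counts per 1000000, with library sizes scaled by TMM; SD, n = 6) in controls to 16.0, 18.7, 16.0 and 19.0 CPM in KO 1 to KO 4, so KO 1 was as low as the other KO livers in a targeted gene (log2 fold change -1.83). H3f3b fell too (-1.66). KO 1 was mostly the lowest KO liver in the T and NK cell genes, and the main counts of the 40 genes are therefore given with and without it. KO 1 was singled out by its values in these same genes, so higher counts and added calls without it follow in part from that choice. Hepatocyte markers summed to between 78257 and 155698 CPM in each liver, while the 40 T and NK cell genes together summed to 19.4 to 31.1 CPM in controls. In RNA of a whole liver, fewer cells of a type and less RNA per cell cannot be told apart. Scaling by library size only shifted the median over all tested genes up by 0.18 on the log2 scale.

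Of the 40 genes, 35 were higher in KO than in the 6 controls, 1 was lower and 4 did not pass the test. Among all genes tested, 19.7% were called higher and 16.6% lower. Zap70 was the gene that fell, and Themis, Skap1, Klrb1c and Klrd1 were not called. All 35 increases exceeded a log2 fold change of 1, the size that 12.9% of all genes passed in that direction. The median log2 fold change was 1.77 over the 40 genes and -0.003 over all genes. Without KO 1, 37 were higher and 1 lower, against 22.0% and 18.9% of all genes, and the median was 2.02. DESeq2 called 32 higher and 1 lower (20.5% and 16.6% of the genes it tested). In 6 of the genes, Ctla4, Pdcd1, Tigit, Gzmk, Ifng and Ncr1, the 6 controls together had fewer than 10 counts. They passed the filter through the KO libraries, so their calls are not independent of it. Of the other 34 genes, 29 were higher and 1 was lower.

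Separation by liver was less complete than the calls. In 7 genes (17.5%) all 4 KO livers lay above all 6 controls, compared with 12.5% of all genes tested: Cd4, Lat, Cd28, Icos, Lag3, Gzmb and Klrk1. KO 2, KO 3 and KO 4 all lay above the controls in 34 genes (85.0%), compared with 20.1% of all genes. KO 1 was left out for its low values in the 40 genes, so these shares are not a like comparison. Singly, KO 2 lay above all controls in 37 genes, KO 3 in 35 and KO 4 in 37, with 29.4%, 30.4% and 31.5% of all genes. KO 1 lay above the controls in 8 genes, within their range in 30 and below it in Zap70 and Prf1. Across all genes, KO 1 was above the controls in 24.7% and within their range in 50.0%. KO 1 was the lowest KO liver in 36 of the 40 genes. The highest was KO 4 in 20 genes and KO 2 in 18. How often each KO liver was lowest or highest over all genes was not computed, so these ranks have no matching share. The heat map by liver shows KO 2, KO 3 and KO 4 in red for nearly every gene and KO 1 near the controls for most.

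**Figure D1:**
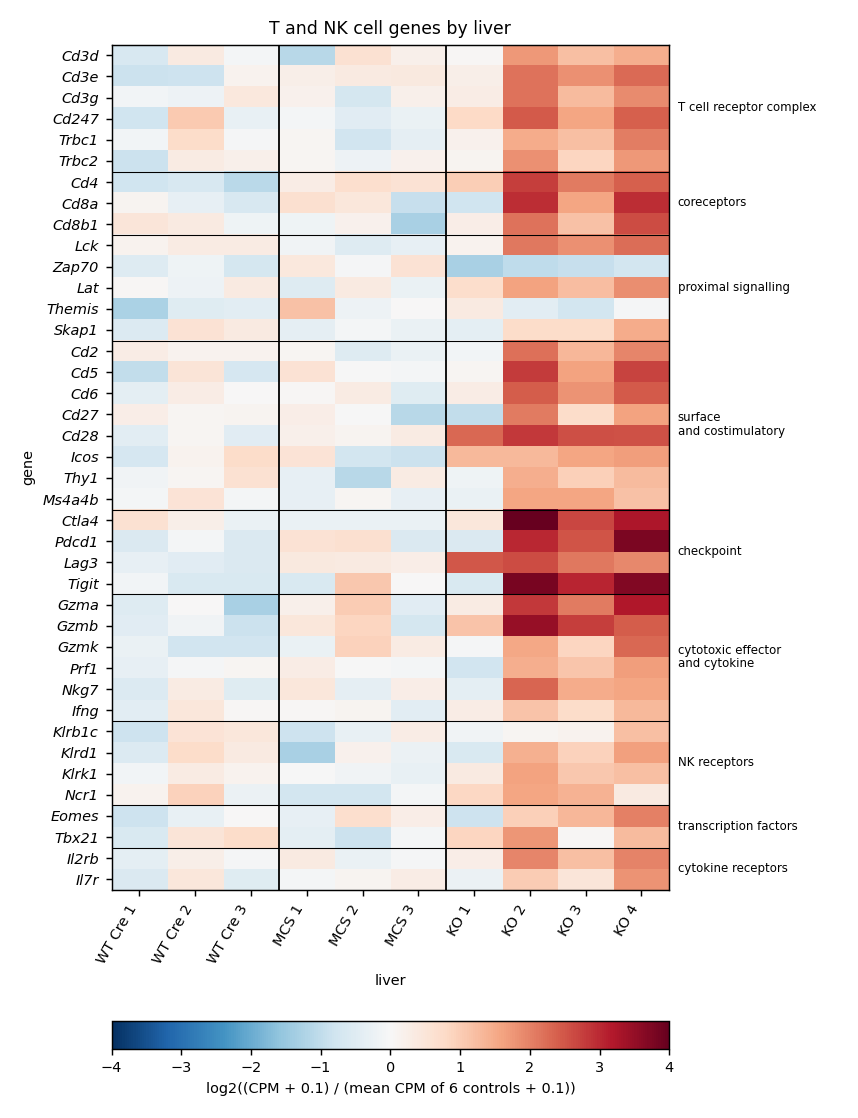
Each cell is log2 of CPM + 0.1 in 1 liver over the mean of the 6 controls + 0.1, for the 40 genes (rows, grouped by role) in 10 livers (columns). KO 2, KO 3 and KO 4 exceed all controls in 34 genes, KO 1 does so in 8, and Zap70 is lower in all 4 KO livers.

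**Figure D2:**
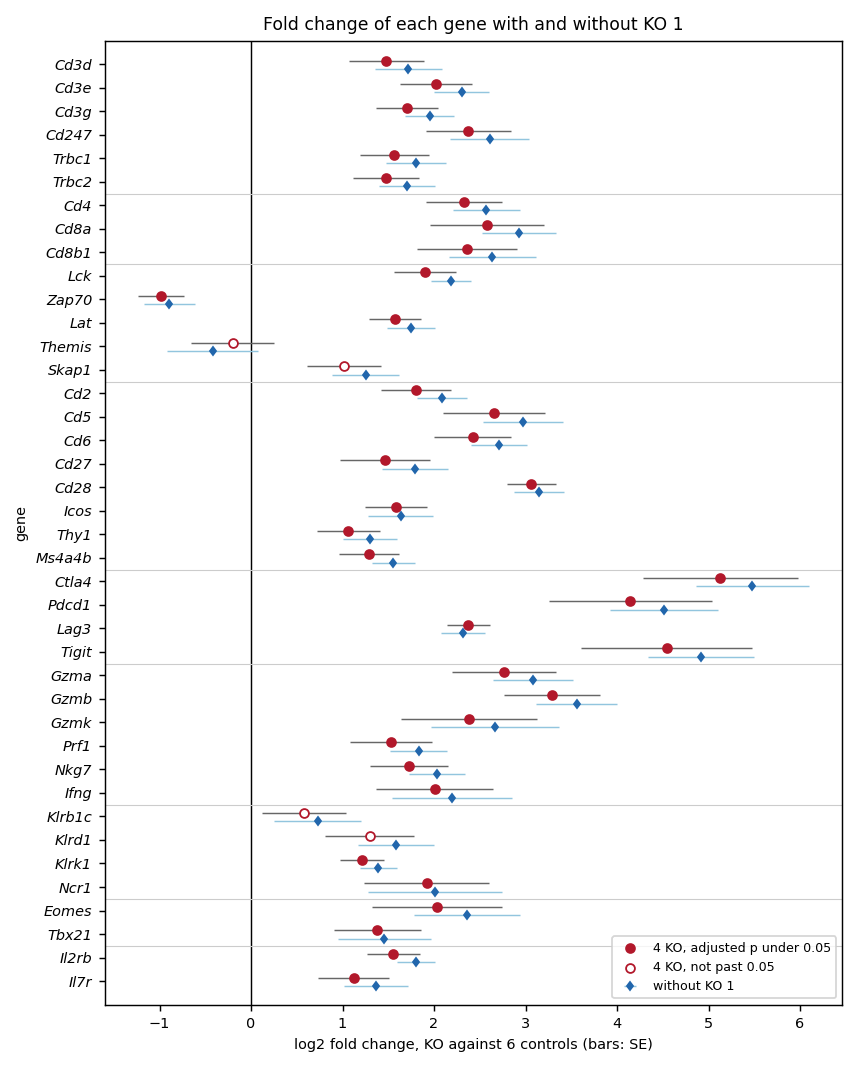
Log2 fold change of each gene, KO against the 6 controls, with its SE (horizontal bars), from all 4 KO livers (circles, open where the adjusted p did not pass 0.05) and without KO 1 (diamonds). Ctla4, Tigit, Pdcd1 and Gzmb have the highest values, and Zap70 is the gene called lower.

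The regions upstream of 3 genes that rose are shown because each holds letters of a motif of a lymphocyte transcription factor family: Gzmb (granzyme B), Prf1 (perforin) and Cd3e (a CD3 chain). The 250 bases before the RefSeq start are given 5′ to 3′ on the strand of the gene, in GRCm38.p6, with capitals for TGTGGT (RUNX) and ACTTCC (ETS) or their reverse complements.
Gzmb, chr14:56262335-56262584, minus strand: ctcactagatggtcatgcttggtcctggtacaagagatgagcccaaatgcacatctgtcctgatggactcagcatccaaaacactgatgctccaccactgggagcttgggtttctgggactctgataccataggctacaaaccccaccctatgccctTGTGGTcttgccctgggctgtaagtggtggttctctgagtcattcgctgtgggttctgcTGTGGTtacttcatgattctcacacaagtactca
Prf1, chr10:61297586-61297835, plus strand: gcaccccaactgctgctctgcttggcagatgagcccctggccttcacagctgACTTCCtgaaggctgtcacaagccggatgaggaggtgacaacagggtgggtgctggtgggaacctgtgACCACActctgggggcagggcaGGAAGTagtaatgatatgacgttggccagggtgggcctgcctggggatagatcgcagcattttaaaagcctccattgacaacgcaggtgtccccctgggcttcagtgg
Cd3e, chr9:45009612-45009861, minus strand: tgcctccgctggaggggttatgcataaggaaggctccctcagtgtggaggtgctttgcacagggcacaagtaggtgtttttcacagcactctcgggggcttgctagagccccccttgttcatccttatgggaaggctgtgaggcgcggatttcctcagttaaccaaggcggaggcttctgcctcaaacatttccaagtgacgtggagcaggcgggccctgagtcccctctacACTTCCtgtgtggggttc
Promoters from 250 bases before to 50 after the start were given for 27 of the 40 genes. On either strand, TGTGGT stood in the promoters of 12 of these 27 genes (44.4%), compared with 18.9% of 27025 genes with a promoter. ACTTCC stood in 12 (44.4%, compared with 26.5%), CTTTGA (TCF/LEF) in 7 (25.9%, compared with 18.2%) and GGTGTGA (T-box) in 2 (7.41%, compared with 4.60%). Zap70, which fell, is among the genes with RUNX, ETS and TCF/LEF letters. The matches are a description of letters and not of bound sites.

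The T cell receptor complex rose as a whole: all 6 genes were higher, compared with 19.7% of all genes tested. Their median log2 fold change was 1.64. Cd3e, whose chain pairs with the other CD3 chains, counted 6, 6 and 15 in the WT Cre livers, 16, 16 and 13 in the MCS livers and 10, 70, 51 and 77 in KO 1 to KO 4. KO 2 to KO 4 lay far above every control, and KO 1 was within their range. Controls held 0.533 ± 0.22 CPM of Cd3e on average (SD, n = 6), KO livers held 2.13 ± 1.04 CPM (SD, n = 4), and the log2 fold change was 2.02 (SE 0.39, adjusted p = 0.00153). Cd3g counted 16, 14 and 25 in WT Cre, 20, 9 and 15 in MCS, and 14, 91, 44 and 77 in KO. Cd3d, the gene of this group with the largest adjusted p (0.0132), counted 5, 12 and 9, then 3, 14 and 8, and 6, 38, 24 and 32 in KO. All 3 show the same picture, with KO 1 among the controls. Cd3d, Cd3e and Cd3g lie within 40.06 kb of chromosome 9 (chr9:44969572-45009627, mm10). Cd247, the zeta chain, rose by a log2 fold change of 2.37. Exons of Pou2f1 on the other strand overlap Cd247, and the strand setting of the counting is not given in the sources used here. Trbc1 and Trbc2 encode the nearly identical constant regions of the receptor beta chain, so the split of reads between them is uncertain. Their log2 fold changes were 1.57 and 1.47.

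All 3 coreceptor genes rose, compared with 19.7% of all genes tested. Cd4, the coreceptor of helper and regulatory T cells that is also found on some myeloid cells, counted 12, 13 and 10 in WT Cre, 29, 35 and 26 in MCS and 30, 177, 102 and 139 in KO. All 4 KO livers were above all controls on the CPM scale, at 1.95 CPM in KO 1 and 4.30 to 7.00 CPM in the other KO livers, with 0.397 to 1.56 CPM in controls. The change was 2.32 on the log2 scale (SE 0.42, adjusted p = 0.00116). Cd8a, the alpha chain of CD8 on cytotoxic T cells, counted 8, 5 and 4 in WT Cre, 13, 10 and 2 in MCS and 2, 75, 26 and 78 in KO. KO 1 was among the lowest livers here and the other KO livers were above all controls. The log2 fold change of Cd8a was 2.58 (SE 0.62, adjusted p = 0.00753), and that of Cd8b1, which encodes the beta chain, was 2.36. Without KO 1 the 3 values were 2.57, 2.93 and 2.64. Cd4 had a lower mean in WT Cre than in MCS, and the difference did not pass the edgeR test (log2 fold change -1.51, adjusted p = 0.155).

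Proximal signalling genes did not move together: Lck and Lat rose, Zap70 fell, and Themis and Skap1 were not called. Lck, the kinase that phosphorylates the CD3 and zeta chains, counted 23, 26 and 28 in WT Cre, 19, 13 and 12 in MCS and 15, 104, 80 and 118 in KO. KO 2 to KO 4 were above all controls and KO 1 was within them. The increase of Lck was 1.90 on the log2 scale (SE 0.34, adjusted p = 0.000869). Lat, an adaptor that assembles the signalling complex, rose by 1.58, and in this gene all 4 KO livers exceeded the controls.

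Zap70, the kinase recruited to the phosphorylated zeta chain (chr1:36761798-36782818, mm10), was the most abundant of the 40 genes per kilobase of exon in controls, at 2.57 ± 0.908 CPM per kb (SD, n = 6). Its counts were 127, 158 and 119 in WT Cre, 252, 167 and 207 in MCS and 47, 95, 95 and 121 in KO. In CPM these were 5.29, 6.85 and 4.72, then 10.3, 7.46 and 11.6, and 3.06, 3.76, 4.00 and 4.63 in KO. All 4 KO livers lay below all 6 controls, which held for 12.0% of all genes tested. The fall was just short of a log2 fold change of -1, which 5.79% of all genes passed when called lower. Against the pooled controls the log2 fold change was -0.98 (SE 0.25, adjusted p = 0.0079), and without KO 1 it was -0.89 (adjusted p = 0.0221). Against MCS alone it was -1.33 (adjusted p = 0.000461), and against WT Cre alone it was -0.53 and did not pass (adjusted p = 0.0682). WT Cre itself was lower than MCS by a log2 fold change of -0.79, which did not pass in edgeR (adjusted p = 0.123) and passed in DESeq2 (adjusted p = 0.0288). Its level per kb in controls was above those of the CD3 chains and Lck (0.131 for Cd3e and 0.297 for Lck). In KO the level of Zap70 was 1.29 CPM per kb and ranked 8 of the 40.

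Themis, a T cell signalling protein best known from thymocytes, counted 7, 13 and 15 in WT Cre, 49, 16 and 15 in MCS and 17, 15, 11 and 21 in KO. MCS 1 was the highest liver, and the KO livers lay inside the controls. The log2 fold change was -0.20 (SE 0.45, adjusted p = 0.769), and it turned to 0.29 without MCS 1. Skap1, an adaptor of integrin activation, did not pass with all livers (1.02, adjusted p = 0.0683) and passed without KO 1 (1.25, adjusted p = 0.0148).

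**Figure D3:**
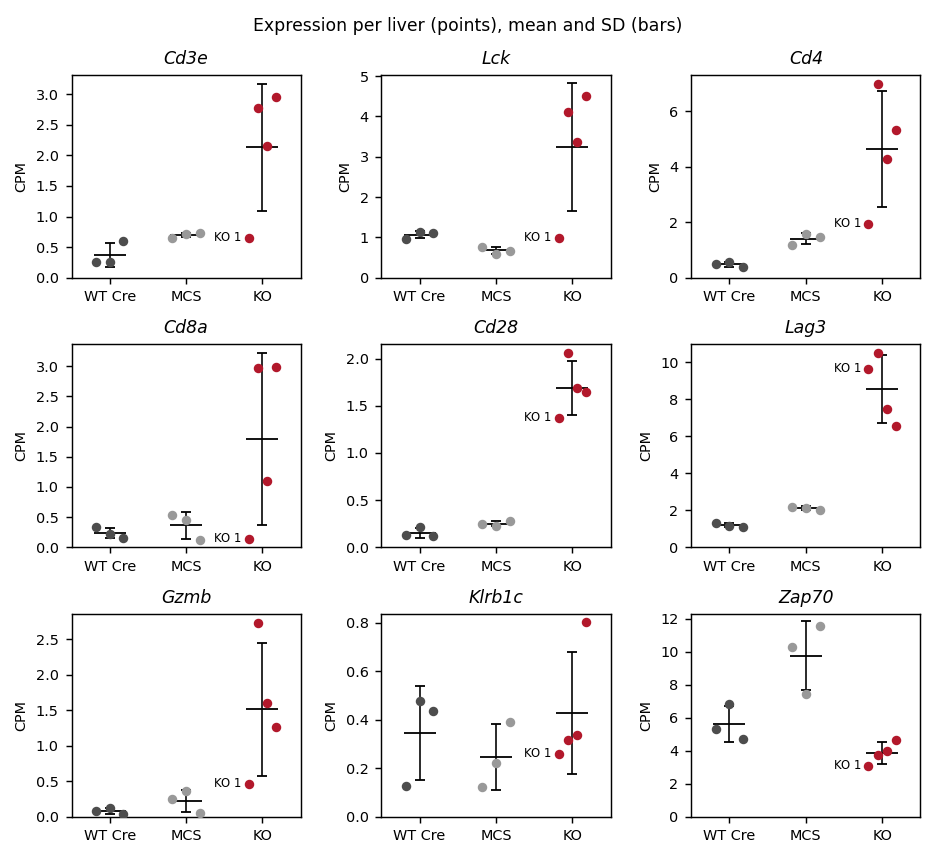
CPM of 9 genes in each liver (points), with the mean and SD of WT Cre (n = 3), MCS (n = 3) and KO (n = 4), and KO 1 named. KO 1 lies with the controls for Cd3e, Lck and Cd8a, far above them for Cd28 and Lag3, and below them with the rest of KO for Zap70.

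All 8 surface and costimulatory genes rose, compared with 19.7% of all genes tested, and their median log2 fold change was 1.70. Cd28, the main costimulatory receptor of T cells, had the smallest adjusted p of the 40 genes. It counted 3, 5 and 3 in WT Cre, 6, 5 and 5 in MCS and 21, 52, 40 and 43 in KO. All 4 KO livers were above all controls, and KO 1, at 1.37 CPM, was 6.80 times the control mean of 0.201 ± 0.0652 CPM (SD, n = 6). The log2 fold change of Cd28 was 3.06 (SE 0.27, adjusted p = 4.84e-06). Icos, a related costimulatory receptor, counted 8, 15 and 26 in WT Cre, 22, 7 and 5 in MCS and 24, 40, 46 and 54 in KO. All 4 KO livers were above the controls in CPM, KO 1 included (1.56 CPM, with at most 1.03 CPM in a control). Cd28, Ctla4 and Icos lie next to each other within 283.5 kb of chromosome 1 (chr1:60716800-61000320, mm10). KO 1 was high for Cd28 and Icos and held a single count of Ctla4.

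Thy1, a surface glycoprotein of T cells that stromal cells also carry, was the most abundant gene of the group. It counted 27, 31 and 50 in WT Cre, 24, 12 and 29 in MCS and 17, 91, 60 and 84 in KO. KO 1 was within the controls and the other KO livers were above them. Thy1 was higher in KO by 1.06 on the log2 scale (SE 0.34, adjusted p = 0.028). Cd27, a costimulatory receptor of the TNF receptor family, counted 11, 9 and 10 in WT Cre, 11, 8 and 2 in MCS and 2, 47, 16 and 34 in KO. KO 1 was close to MCS 3, the lowest control, while the other KO livers were above all controls. On the log2 scale Cd27 rose by 1.47 (SE 0.49, adjusted p = 0.033). The call of Cd27 was lost in 8 of 19 alternative settings. The other 4 genes, Cd2, Cd5, Cd6 and Ms4a4b, rose by log2 fold changes of 1.81, 2.65, 2.42 and 1.29. Cd2 is an adhesion receptor, and Cd5 and Cd6 are neighbouring genes for scavenger-family receptors that tune the receptor signal.

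All 4 checkpoint genes rose, compared with 19.7% of all genes tested. Their median log2 fold change of 4.34 rests on Ctla4, Tigit and Pdcd1, which passed the filter through the KO libraries, and Lag3 was at 2.38. Lag3, whose protein binds MHC class II, counted 31, 27 and 27 in WT Cre, 54, 48 and 36 in MCS and 148, 266, 177 and 172 in KO. In CPM the KO livers held 9.64, 10.5, 7.46 and 6.58, and the highest control held 2.20. KO 1 ranked above KO 3 and KO 4, and no KO liver overlapped the controls. The log2 fold change of Lag3 was 2.38 (SE 0.23, adjusted p = 1.17e-05), and 2.32 without KO 1. Lag3 ranked first of the 40 genes per kb in KO (4.05 ± 0.872 CPM per kb, SD, n = 4) and second in controls (0.781 CPM per kb). Lag3 and Cd4 are neighbours on chromosome 6 (chr6:124864692-124911705, mm10), and KO 1 exceeded all controls in both.

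The other 3 checkpoint genes were nearly absent from controls and from KO 1. Pdcd1 (PD-1) counted 0, 1 and 0 in WT Cre, 3, 3 and 0 in MCS and 0, 28, 18 and 51 in KO. Ctla4 counted 2, 1 and 0 in WT Cre, 0 in each MCS liver and 1, 48, 16 and 27 in KO. Tigit counted 1, 0 and 0 in WT Cre, 0, 5 and 1 in MCS and 0, 51, 28 and 50 in KO. In each of the 3 genes KO 2 to KO 4 were far above every control, and KO 1 was not. The pooled counts gave a KO to control rate ratio of 46.4 for Ctla4 and of 21.0 for Pdcd1. Both ratios sum reads over livers that differ widely, in genes that passed the filter through the KO libraries. They are descriptions and do not measure the spread between livers. The fitted log2 fold changes were 5.13 for Ctla4, 4.14 for Pdcd1 and 4.54 for Tigit (adjusted p = 0.000612, 0.00389 and 0.0033). Single livers moved these values: Ctla4 was at 6.06 without WT Cre 1 and at 4.53 without KO 2, Pdcd1 was at 3.56 without KO 4, and Tigit was at 5.85 without MCS 2. Tigit moved from rank 29 of the 40 genes per kb in controls to rank 7 in KO.

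All 6 cytotoxic and cytokine genes rose, compared with 19.7% of all genes tested, and their median log2 fold change was 2.20. That median lies between the values of Ifng and Gzmk, which passed the filter through the KO libraries. Gzma, granzyme A, counted 5, 8 and 2 in WT Cre, 10, 18 and 4 in MCS and 7, 77, 42 and 105 in KO. KO 1 was among the controls and the other KO livers were above them. The increase of Gzma was 2.76 on the log2 scale (SE 0.57, adjusted p = 0.00299), and per kb it moved from rank 8 to rank 2. Gzmb, granzyme B, counted 2, 3 and 1 in WT Cre, 6, 8 and 1 in MCS and 7, 69, 38 and 33 in KO. At 0.456 CPM KO 1 was above the highest control, 0.357 CPM, a difference that rests on 7 counts. The log2 fold change of Gzmb was 3.29 (SE 0.53, adjusted p = 0.000438). Gzmk, Prf1 and Nkg7, which encode another granzyme, the pore-forming perforin and a granule protein, rose by 2.39, 1.53 and 1.73. Prf1 had a single count in KO 1, below every control in CPM. Ifng, interferon gamma, counted 0, 2 and 1 in WT Cre, 1, 1 and 0 in MCS and 1, 5, 3 and 6 in KO. These are few reads in every liver. The pooled rate ratio was 4.54, a description that sums reads over livers and does not measure the spread between them. Ifng passed in edgeR (adjusted p = 0.0261) and not in DESeq2.

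Of the 4 NK receptor genes, Klrk1 and Ncr1 rose, Klrb1c and Klrd1 did not pass, and the median log2 fold change was 1.25. The share of all genes tested that were higher was 19.7%. Klrk1 (NKG2D, an activating receptor that CD8 T cells share with NK cells) counted 23, 31 and 29 in WT Cre, 25, 21 and 15 in MCS and 21, 86, 55 and 66 in KO. In CPM KO 1 lay just above the highest control (1.37 and 1.34) and the other KO livers lay well above. On the log2 scale Klrk1 rose by 1.21 (SE 0.24, adjusted p = 0.00174). Ncr1 (NKp46, the receptor that marks NK cells most closely) counted 2, 5 and 1 in WT Cre, 0, 0 and 1 in MCS and 3, 10, 8 and 3 in KO. KO 1 and KO 4, with 3 counts each, were inside the range of the controls in CPM. Ncr1 rose by 1.92 on the log2 scale (SE 0.69, adjusted p = 0.0426), at 2.73 without WT Cre 2, and the call was lost in DESeq2 and in 7 of the 10 fits that leave out 1 liver.

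Klrb1c (NK1.1) counted 3, 11 and 11 in WT Cre, 3, 5 and 7 in MCS and 4, 8, 8 and 21 in KO. KO 1, KO 2 and KO 3 were inside the range of the controls, and KO 4 was above it. Its fold change was 0.58 on the log2 scale (SE 0.46, adjusted p = 0.357), and another annotated gene shares part of its exons on the same strand. Klrd1 (CD94) was at 1.30 (adjusted p = 0.052) and passed without KO 1 (1.58, adjusted p = 0.00811). The Klr and granzyme genes belong to families of close copies, so their split of reads is uncertain.

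Of the transcription factors, Tbx21 (T-bet) counted 3, 9 and 12 in WT Cre, 4, 2 and 4 in MCS and 8, 27, 6 and 19 in KO. KO 3 was within the controls, and the other KO livers were above them in CPM. Its log2 fold change was 1.38 (SE 0.47, adjusted p = 0.0362). Eomes counted 0, 1 and 2 in WT Cre, 1, 4 and 2 in MCS and 0, 6, 8 and 16 in KO, with a log2 fold change of 2.03 (adjusted p = 0.0395). KO 1 held no count of Eomes, which at this depth allows up to 3, and the other KO livers were above the controls in CPM. Both calls were lost in several alternative settings. Of the cytokine receptors, Il2rb, the beta chain shared by the IL-2 and IL-15 receptors, counted 39, 59 and 52 in WT Cre, 68, 40 and 37 in MCS and 40, 216, 120 and 232 in KO. KO 1 was within the controls and the other KO livers were above them, with a log2 fold change of 1.56 (SE 0.29, adjusted p = 0.00117). Il7r, the IL-7 receptor of naive and memory T cells, counted 7, 16 and 8 in WT Cre, 11, 12 and 11 in MCS and 6, 27, 17 and 50 in KO. KO 1 was within the controls and the other KO livers were above them. The increase of Il7r was 1.12 on the log2 scale (SE 0.39, adjusted p = 0.0378).

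Against each kind of control alone, 28 genes were higher in KO, compared with 15.3% of all genes against WT Cre and 17.3% against MCS. Without KO 1, 33 were higher against WT Cre and 37 against MCS. For these comparisons, shares of all genes with a liver left out were not computed, so such counts have no matching share. The comparisons share the KO livers. Against WT Cre, no gene was lower by edgeR, 32 of the 40 had an unadjusted p under 0.05, and DESeq2 called 27 higher and 0 lower. The share of all genes called lower was 13.1% against WT Cre and 14.8% against MCS. Against MCS, Zap70 was lower. Leaving out WT Cre 1 or WT Cre 3 left 14 or 15 genes higher against WT Cre, and leaving out MCS 1 left 16 higher against MCS. Between WT Cre and MCS, none of the 40 genes passed in edgeR in either direction, where 0.441% of all genes were higher and 0.486% lower. There 4 had an unadjusted p under 0.05, and DESeq2 called Cd4 and Zap70 lower in WT Cre. Shares of all genes were not computed for unadjusted p, nor for DESeq2 in these comparisons, so those counts have no matching share.

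The ratio of pairs of genes within a liver was compared for 13 pairs by a two-sided exact permutation test over 210 splits of 4 against 6 livers, in which the smallest possible p is 0.00476. No pair passed after Benjamini-Hochberg adjustment. Klrb1c relative to Cd3e had the smallest p: KO livers had a mean log2 ratio of -1.99 ± 0.751 (SD, n = 4), and the 6 controls had one of -0.70 ± 0.841 (SD; exact p = 0.0429, adjusted p = 0.31). Cd28 relative to Cd3e was 0.87 higher in KO on the log2 scale (exact permutation p = 0.0571, adjusted p = 0.31). Cd8a relative to Cd4 differed by -0.43 (exact permutation p = 0.467, adjusted p = 0.607). The plot of ratios shows KO 1 above the other KO livers for Cd28/Cd3e, at 0.97 with -0.80 to -0.33 in the others.

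**Figure D4:**
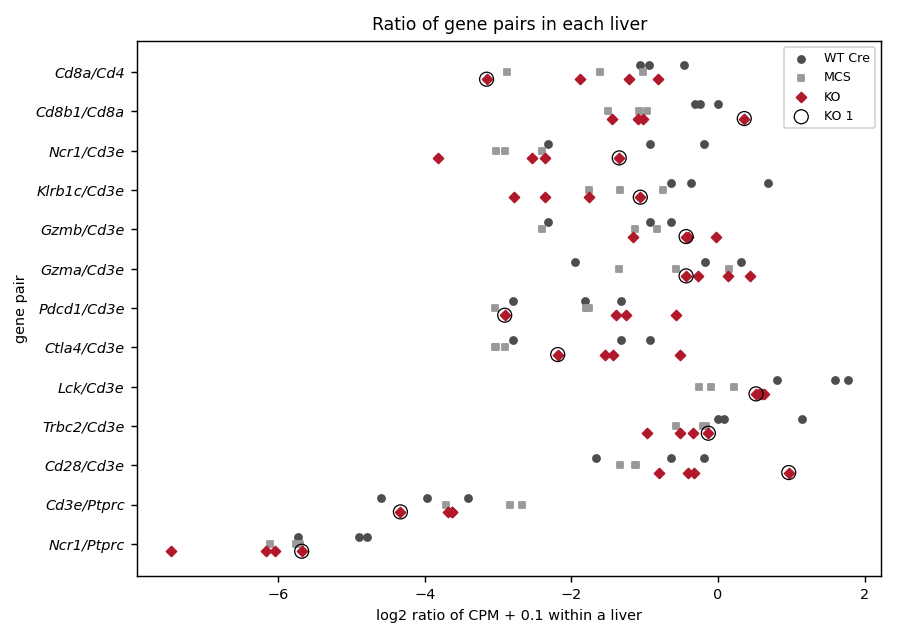
Log2 ratio of CPM + 0.1 for 13 gene pairs in each liver of WT Cre (n = 3), MCS (n = 3) and KO (n = 4, KO 1 circled). Groups overlap in most pairs, and KO 1 is the highest liver for Cd28/Cd3e.

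A list of 51 further T and NK cell genes, not part of the 40, was also chosen with earlier results of these data known. Of these, 35 were higher and 2 lower, with a median log2 fold change of 1.42. Among all genes tested, 19.7% were higher and 16.6% lower. Without KO 1, 36 were higher and 2 lower, against 22.0% and 18.9% of all genes. Tnfrsf9 (4-1BB), the chemokine receptor Cxcr3 and the chemokine Ccl5 rose most, by 2.43, 2.30 and 2.28. Ccl5 was at 0.559 to 1.88 CPM in controls, at 1.56 CPM in KO 1 and at 10.1, 5.48 and 7.34 CPM in KO 2 to KO 4. Tox, a transcription factor of exhausted T cells that other cells also express, fell by 1.45 on the log2 scale, and S1pr1, the receptor by which lymphocytes leave tissue and which endothelium carries, fell by 0.98. Foxp3, the factor of regulatory T cells, was at 0.88 and did not pass (adjusted p = 0.131). Foxp3 was named after its values were seen.

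Of 21 genes for ligands of the receptors above, 19 were tested, 10 were higher and 2 lower. Among all genes tested, 19.7% were higher and 16.6% lower. Pdcd1lg2, which encodes a PD-1 ligand, rose by a log2 fold change of 3.39 from a level near 0. Cd48, a ligand of CD2, rose by 1.98, and Cd86, a ligand of CD28 and CTLA-4, rose by 1.86. Cd86 was at 5.08 CPM in KO 1 and at 8.85 to 9.13 CPM in the other KO livers, with 1.55 to 4.02 CPM in controls. Clec2d, which encodes a ligand of NK receptors, fell by 1.02 on the log2 scale, and Il15ra, which presents IL-15, fell by 0.69. Without KO 1, 4 ligand genes were lower. The ones added were Raet1d and Raet1e, which encode ligands of NKG2D and are named here after their values were seen. Raet1d was at 12.4 to 34.1 CPM in controls, at 39.6 CPM in KO 1 and at 3.16, 2.15 and 0.688 CPM in KO 2 to KO 4. KO 1 was above all controls and the other KO livers were below them.

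Of 9 genes of MHC class I presentation, 6 were higher and 2 lower, against 19.7% and 16.6% of all genes tested. Without KO 1 the counts were the same. Psmb8 and Psmb9, subunits of the immunoproteasome, rose by log2 fold changes of 1.40 and 0.98, and the peptide transporter Tap1 rose by 0.81. Psmb8 was at 73.8 to 82.8 CPM in all 4 KO livers and at 24.3 to 36.3 CPM in controls, and KO 1 (78.6 CPM) was no lower than the rest of KO. H2-K1 and B2m fell by 0.36 and 0.31 on the log2 scale, calls that were lost with scaling by library size only. Of 11 interferon gamma response genes, 10 were tested, and Cxcl10, Ciita and Gbp2 rose most (2.67, 2.66 and 2.23). Of the 10, 7 were higher, against 19.7% of all genes tested, and 7 were higher without KO 1. None was lower by edgeR or by DESeq2, and 7 had an unadjusted p under 0.05, for which the share of all genes was not computed. Cxcl10, a chemokine that binds Cxcr3, was at 2.73 to 8.89 CPM in controls, at 11.6 CPM in KO 1 and at 27.4 to 52.9 CPM in the other KO livers.

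Some markers of other immune cells moved as well. All 3 pan-leukocyte and all 6 macrophage genes were higher, all 4 tested plasma cell genes, 2 of 6 B cell genes, 2 of 5 dendritic cell genes and 2 of 4 tested neutrophil genes. The other 4 B cell, 3 dendritic cell and 2 tested neutrophil genes were not called, and 19.7% of all genes tested were higher. Hepatocyte genes were lower in 6 of 8, compared with 16.6% of all genes. The pan-leukocyte genes summed to 22.6 to 35.2 CPM in controls, to 54.7 CPM in KO 1 and to 98.9 to 139 CPM in the other KO livers. KO 1 was thus 1.99 times the control mean for the pan-leukocyte sum and 1.86 times for the macrophage sum, which ranged from 189 to 352 CPM in controls. For the T cell receptor complex KO 1 was 1.24 times the control mean, with 2.85 to 4.63 times in the other KO livers, and for the cytotoxic group 1.13 times, with 4.47 to 7.69. For the checkpoint sum KO 1 was 5.48 times the control mean, at 9.71 CPM, of which Lag3 made up 9.64 CPM. Relative to Ptprc, the pan-leukocyte CD45 gene, Cd3e differed by -0.29 on the log2 scale (exact permutation p = 0.519, adjusted p = 0.613). No mast cell or basophil gene of the 4 listed was tested, and 1 of 4 group 2 innate lymphoid genes was, without a call. The part of these other cells and of the lower hepatocyte RNA in the values above was not tested.

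**Figure D5:**
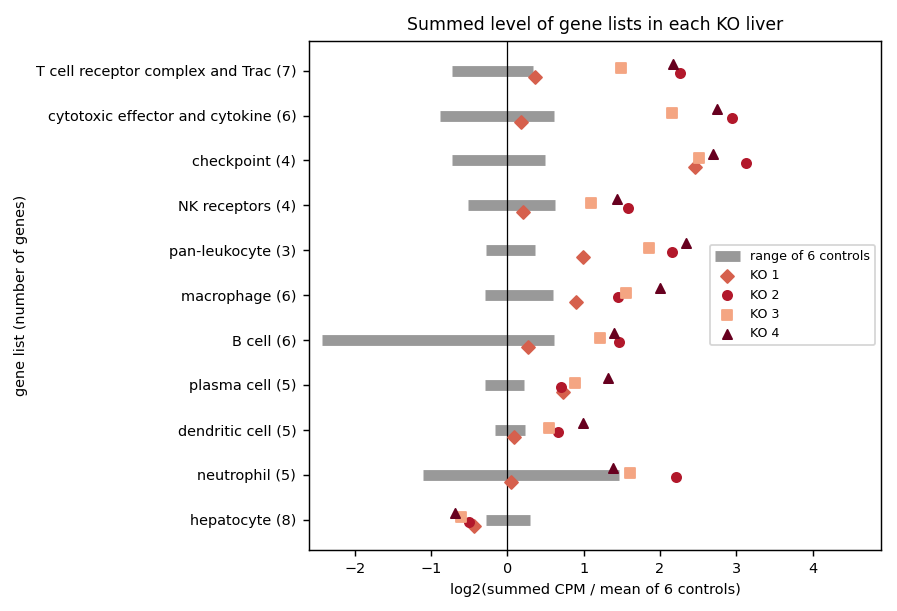
Summed CPM of each gene list in KO 1 to KO 4 over the mean of the 6 controls, on a log2 scale, with the range of the controls as a grey bar and the number of genes in brackets (the first list adds Trac to the 6 receptor genes). KO 1 is at 1.28, 1.13 and 1.15 times the control mean for the receptor, cytotoxic and NK lists and at 1.99 times for the pan-leukocyte list. For the plasma cell list KO 1 is at 1.65 times, and its genes differ. Sdc1 and Derl3 were at 1.64 and 3.51 times the control mean in KO 1, and Jchain, Mzb1 and Tnfrsf17 at 0.606, 0.298 and 0 times.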

How the data were processed

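Poly(A) RNA of 10 mouse livers (KO, n = 4; WT Cre, n = 3; MCS, n = 3) was sequenced with a directional kit. The authors deposited gene counts and FPKM. The submitters' processing notes list STAR, HTSeq, Cufflinks and mm10, while the methods name HOMER for counting, so the counter and its strand setting are not settled. The deposited FPKM values were used as an alternative only, with 268042 blank cells read as 0. The 40 genes and the lists were chosen with earlier results of these data known.

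Genes with at least 10 counts over the 10 libraries were tested with edgeR 4.0.16 (R 4.3.3), with TMM factors of 0.858 to 1.11 and the two-sided robust quasi-likelihood test. P values were adjusted by Benjamini-Hochberg over all 22449 genes, and a gene was called at an adjusted p under 0.05. CPM are TMM-scaled. KO was compared with the 6 controls in a fit of 2 groups, and with each kind of control in a fit of 3 groups. DESeq2 1.42.0 and limma 3.58.1 were alternatives, with other scalings and filters, each library left out and a replicate block. Ratios used a pseudocount of 0.1 CPM.

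Values in every liver are given, within each role, for the gene with the highest mean CPM and those with the smallest and largest adjusted p, and for Cd3e, Cd4, Cd8a, Ncr1, Klrb1c, Gzmb, Pdcd1 and Ifng. Values of Ctla4, Tigit and Icos in every liver were added after they were seen. Of other lists, up to 3 called genes with the largest change in each direction are named. The labels do not say which animal each library came from, so p-values measure the spread between libraries. No library repeated another (chi-square per degree of freedom 10.3 to 96.7 between replicates). Promoters are from RefSeq (GRCm38.p6), and gene positions from an annotation of the same build.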

Additional observations from a re-analysis of the deposited data

Results flagged for a closer look

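In groups of 4 to 6 livers, 5 of 80 tests of the most extreme liver passed, and chance gives about 1 in 20. KO 1 was the liver that passed in 0 of the 40 genes. In the 6 controls, Cd247 was high in WT Cre 2 (0.564 CPM, with 0.0834 to 0.204 in the other controls). Themis was high in MCS 1 (1.99 CPM, with 0.292 to 0.838 in the others), the liver whose removal changes the sign of its fold change. Tigit was high in MCS 2 (0.223 CPM, 5 counts, with at most 0.0559 in the others). Cd27 was low in MCS 3 (0.112 CPM, 2 counts, with 0.357 to 0.459 in the others). In KO, Klrb1c was high in KO 4 (0.803 CPM, with 0.261 to 0.337 in the others).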

How the results depend on the processing

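Of the 36 called genes, 26 kept their call in every alternative that tested them (filterByExpr left out 6 of the 26, Cd8b1, Cd5, Cd6, Ctla4, Pdcd1 and Tigit), and 10 lost it at least once (Cd3d, Cd27, Thy1, Gzmk, Prf1, Ifng, Ncr1, Eomes, Tbx21 and Il7r). Skap1 and Klrd1, not called, passed at least once. The number higher was 35, and from 25 (filterByExpr, which kept 28 of the 40 genes) to 37 (library size only) under other tools and filters. Leaving out 1 liver gave 25 (without KO 2) to 37 (without KO 1) higher and 1 lower. Among called genes it moved the fold change by more than 1.5 times in Ctla4, Pdcd1, Tigit, Ncr1, Gzmk (log2 values 3.20 without MCS 2 and 1.77 without KO 4) and Eomes (1.44 without KO 4), and the last 2 lost their call without KO 4. Against WT Cre it gave 14 to 33 higher and 0 to 1 lower, Zap70 without KO 4. Against MCS it gave 16 to 37 higher. Without KO 2, 19 were higher against each kind of control. With 1 liver left out, shares of all genes were computed only without KO 1 against the pooled controls. Between WT Cre and MCS, DESeq2 called 2 lower, and leaving out 1 liver gave 0 to 1 (Cd4 without KO 1). With a log2 fold change under -1 as a further rule, 0 genes were lower, because Zap70 is at -0.98. With library size only, 0 MHC class I genes were lower, and leaving out 1 liver gave 0 to 2. The ligand list had 2 to 4 lower on leaving out 1 liver.

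Replicate numbers did not pair the livers (correlation of deviations between same-numbered livers -0.0387 to 0.111, over 0.1 in 1 of 9 pairs). With the replicate number as a block, 27 genes were higher and 1 lower, 23 were higher against WT Cre and 27 against MCS.

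Signs changed in results that had not passed. Themis ranged from -0.421 (without KO 1) to 0.287 (without MCS 1) and was at 0.0016 with log2(FPKM + 0.1). Among ratios, KO minus controls became -0.061 for Pdcd1/Cd3e and 0.066 for Lck/Cd3e with a pseudocount of 0.5 CPM. Leaving out 1 liver gave -0.282 (MCS 2) to 0.124 (WT Cre 2) for Lck/Cd3e, -0.50 (KO 1) to 0.101 (KO 2) for Cd8b1/Cd8a, and -0.752 (KO 4) to 0.0293 (KO 1) for Cd8a/Cd4. The causes were not tested. Depth limits the low genes: 33 of the 40 had at most 30 counts in every control.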
